A study of Ovis aries with 20 samples.

Results

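Granulosa cells, which line the follicle and surround the egg, were compared with theca cells, the layer outside them, in adult sheep exposed to testosterone before birth. The comparison rests on 10 of the 19 libraries in the table. They are 1 granulosa and 1 theca library from each of the 5 prenatal testosterone (prenatal T) sheep 209, 210, 230, 276 and 315, taken by their treatment label and paired by the number of the sheep. The mothers of these sheep had been injected intramuscularly with 100 mg testosterone propionate (1.2 mg/kg) 2 times a week between days 30 and 90 of gestation. The mothers of the control sheep 224, 244, 246 and 268, which enter the last comparison, had been given vehicle over the same days. Both groups were 21 months old and had received 2 doses of 10 mg prostaglandin F2α, which ends the life of the corpus luteum, given 11 days apart. Their ovaries were collected 18 h after the second dose. Cells were microdissected from 14 µm cryosections. Those of several antral follicles of a sheep were pooled by layer, so each library mixes follicles and a replicate is 1 animal. The comparison asks which genes separate the layers in prenatal T sheep, and whether that separation differs from the one in control sheep.

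As background, granulosa cells have no blood supply of their own and sit inside a basal lamina, while theca is a vascular connective tissue with steroid-making cells, fibroblasts, smooth muscle, vessels and immune cells. Luteinizing hormone acts on theca cells, which turn cholesterol into androgens by way of CYP11A1, HSD3B and CYP17A1. Follicle-stimulating hormone acts on granulosa cells, which aromatise those androgens to estrogens and secrete anti-Müllerian hormone, inhibins and activins. Levels below are normalised counts, gene counts that were divided by each library's size factor, and lists of 5 values run in the order of sheep 209, 210, 230, 276 and 315. A layer difference is granulosa minus theca on the scale of log2 of the level plus 1, which understates the change of genes with low levels. It is given ± the SE of the limma fit with the sheep as a block. A gene is called when its limma p, adjusted by Benjamini-Hochberg over the 15731 genes tested, is under 0.05.

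The 10 libraries held 12.7 to 16.1 M reads, on average 14.2 ± 1.38 M in granulosa and 14.7 ± 0.582 M in theca (SD, n = 5). Both libraries of sheep 209 stood apart from the others. AMH, FSHR, CYP19, CYP17A1, LHCGR and CYP11A1 were at 0 in both of them, where 3 reads, the limit that a count of 0 allows for counting error, would be a level of 3.45 in granulosa and 3.80 in theca. Over genes, which do not count as replicates, log2 levels of its granulosa library correlated with those of the other sheep at r = 0.65 to 0.74, against 0.91 to 0.96 among the other sheep. For its theca library the range was 0.73 to 0.78 against 0.93 to 0.96. The summed level of the listed epithelial genes in its granulosa library was 107336 against 799 to 4651 in the other 4, and that of the listed neutrophil genes 253784 against 72.5 to 1435. KRT19, a keratin of simple epithelia, stood at 34371, 77.5, 50.9, 50.4 and 416 in granulosa and 9626, 34.2, 18.8, 23.5 and 35.3 in theca, and LTF, the iron-binding protein of glands and neutrophils, at 198387, 19.4, 35.3, 21.8 and 23.7 in granulosa and 38219, 3.20, 2.09, 5.12 and 5.69 in theca. Its theca library still held COL1A1 at 127254 and ACTA2 at 56967. The part of these epithelial and neutrophil genes in any result of sheep 209 was not tested. Layer differences of genes and counts of called list members are given over 5 pairs and without sheep 209.

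The layers differed over a large share of the genes. Of the 15731 genes tested, 5274 (33.5%) were called over 5 pairs, 2557 (16.3%) higher in granulosa and 2717 (17.3%) higher in theca. Without sheep 209, 7761 (49.3%) were called, 3782 (24%) higher in granulosa and 3979 (25.3%) higher in theca. The calls had 5204 genes in common, all in the same direction, which is 98.7% of the first set and 67.1% of the second. The counts of the directions were close, but the sizes were not. Among called genes, 264 were over 4-fold higher in granulosa and 1418 over 4-fold higher in theca without sheep 209, and past 16-fold the counts were 11 and 219. Levels of the 4 granulosa libraries did not overlap those of the 4 theca libraries for 5421 genes (34.5%), with granulosa above theca for 2525 (16.1%) and theca above granulosa for 2896 (18.4%). With sheep 209 there were 1556 such genes (9.89%), 486 (3.09%) and 1070 (6.8%) in these directions. Leaving out sheep 210, 230, 276 or 315 in place of sheep 209 left 3036, 2936, 3065 and 3349 called genes. In these bulk libraries fewer cells of a type and less RNA per cell cannot be told apart.

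**Figure D1:**
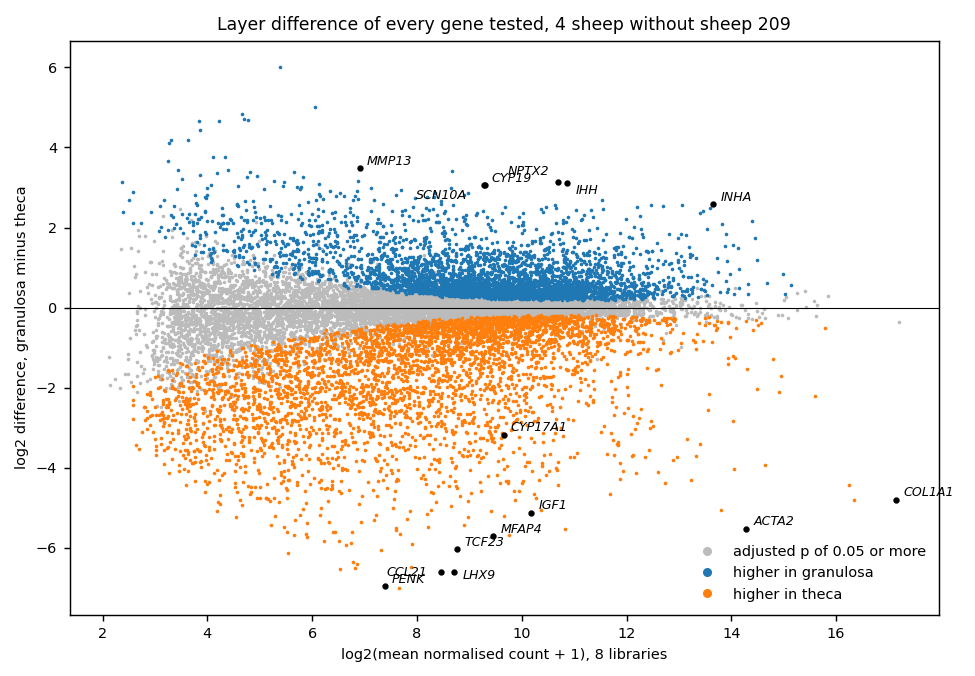
Layer difference of the 15731 genes tested, without sheep 209, plotted against the log2 of their mean normalised count plus 1 over the 8 libraries. Each point is 1 gene, blue where it was called higher in granulosa (3782 genes), orange where it was called higher in theca (3979) and grey otherwise. The orange cloud reaches farther from 0 than the blue one, with 219 called genes over 16-fold higher in theca and 11 over 16-fold higher in granulosa.

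The widest differences on the granulosa side, among called genes with a mean level of at least 100, included a hedgehog ligand and an ion channel. IHH, the Indian hedgehog ligand, stood at 1.15, 2722, 4109, 3947 and 2548 in granulosa and 0, 350.0, 371, 415 and 374 in theca. Its layer difference was 2.71 ± 0.34 over 5 pairs and 3.11 ± 0.12 without sheep 209 (limma, adjusted p = 0.00215 and 1.14e-05). Its layers did not overlap in the 4 other sheep, and in sheep 209 it was at the level of 1 read in granulosa and at 0 in theca. NPTX2, a secreted neuronal pentraxin, was called in both fits and had a clear level in sheep 209 as well, at 162, 3488, 1753, 3005 and 3403 in granulosa and 34.2, 442, 93.2, 432 and 589 in theca (2.95 ± 0.28 and 3.13 ± 0.25). SCN10A, a voltage-gated sodium channel known from sensory neurons, stood at 0, 1601, 932, 823 and 1101 in granulosa and 0, 232, 72.2, 118 and 135 in theca (2.45 ± 0.51 and 3.07 ± 0.16), so the gene was undetected in sheep 209 and separated the layers without overlap in the rest. GFRA3, a receptor for the neurotrophic factor artemin, differed by 2.63 ± 0.34 and 2.99 ± 0.19 and ACSBG1, an acyl-CoA synthetase, by 2.27 ± 0.57 and 2.95 ± 0.19. XIRP1, an actin-binding protein known from striated muscle, stood at 1.15, 773, 302, 183 and 1693 in granulosa and 3.80, 176, 12.6, 28.7 and 80.8 in theca and was called without sheep 209 (3.40 ± 0.41) but not over 5 pairs (2.49 ± 0.81, limma adjusted p = 0.0548). KLHL31 and GPX2, a glutathione peroxidase of epithelia, differed by 2.25 ± 0.55 and 2.90 ± 0.21 and by 2.74 ± 0.42 and 2.98 ± 0.43. Sheep 209 was far above the others in GPX2. Its levels were 3860.5 against 77.4 to 421 in granulosa and 1105 against 7.33 to 112 in theca.

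The collagenases MMP13 and MMP1 were on the granulosa side too. MMP13 stood at 759, 182, 165, 42.4 and 483 in granulosa and 121, 27.7, 7.33, 3.07 and 41.0 in theca, and its layers overlapped across the 5 sheep although each sheep had the higher level in granulosa (3.31 ± 0.30 over 5 pairs and 3.48 ± 0.32 without sheep 209). MMP1, the interstitial collagenase, stood at 10930.2, 106, 133, 11.5 and 108 in granulosa and 4627, 21.3, 4.19, 0 and 12.5 in theca (2.97 ± 0.49 and 3.40 ± 0.47), so sheep 209 stood far above the others in both layers. Several genes that the 5 pairs placed at the top were carried by sheep 209 in level. SLC26A4, the anion exchanger pendrin, stood at 2969.9, 118, 191, 91.7 and 111 in granulosa and 406, 14.9, 17.8, 20.5 and 19.3 in theca. ESRP1, an epithelial splicing regulator, had a granulosa level of 2198 in sheep 209 and of 6.88 to 33.2 in the others. For ELF3, an epithelial transcription factor, these were 5768 and 4.90 to 11.8. Their layer differences were 2.74 ± 0.23 and 2.71 ± 0.29, 3.33 ± 0.53 and 3.67 ± 0.67 and 2.90 ± 0.39 and 3.13 ± 0.65. KRT8 stood at 7042, 496, 209.6, 196 and 2629 in granulosa and 1355, 79.0, 38.7, 56.3 and 122 in theca (2.72 ± 0.36 and 2.81 ± 0.39), with sheep 315 next to sheep 209 in granulosa, and ATF7IP2 at 40.3, 842, 813, 601 and 483 in granulosa and 0, 266, 96.3, 233 and 70.5 in theca (2.84 ± 0.56 and 2.21 ± 0.29).

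The theca side was led by genes with little or no level in granulosa. Such genes could pass the filter on low levels through theca libraries alone, so their low granulosa levels are a description and not separate support. PENK, the precursor of the enkephalin peptides, stood at 11.5, 0, 1.96, 0 and 0 in granulosa and 91.1, 236, 965, 95.2 and 31.9 in theca (-6.15 ± 0.82 over 5 pairs and -6.97 ± 0.61 without sheep 209). In granulosa it was below 3 reads in the 4 sheep without 209, and its theca level ranged widely between sheep. CCL21, the chemokine that lymphatic endothelium secretes to guide lymphocytes, stood at 5.75, 5.38, 10.8, 6.88 and 2.37 in granulosa and 263, 695, 871, 346 and 856 in theca (-6.34 ± 0.42 and -6.61 ± 0.40). MMRN1, a multimerin found in lymphatic endothelium and platelets, stood at 26.5, 1.08, 3.92, 0 and 26.1 in granulosa and 407, 221, 365, 209 and 1048 in theca (-5.97 ± 0.54 and -6.49 ± 0.42). Neither gene had a theca library within the range of the granulosa libraries. TCF23, a basic helix-loop-helix factor of the reproductive tract, stood at 13.8, 12.9, 9.80, 9.17 and 16.6 in granulosa and 132, 808, 829, 668 and 1117 in theca (-5.46 ± 0.48 and -6.04 ± 0.18, limma adjusted p = 0.000655 and 8.77e-06). LHX9, a homeobox gene of the developing gonad, stood at 0, 3.23, 13.7, 3.44 and 15.4 in granulosa and 0, 737, 765, 598 and 1198 in theca (-5.28 ± 1.07 and -6.60 ± 0.32), at 0 in sheep 209 and without overlap in the rest. HSPB8, a small heat shock protein, was near 0 in granulosa of every sheep but 209, at 449, 2.15, 0, 1.15 and 3.55 in granulosa and 709.8, 238, 169.6, 149 and 336 in theca (-5.33 ± 0.95 and -6.50 ± 0.37). VIPR2, a receptor of vasoactive intestinal peptide, differed by -5.73 ± 0.78 and -6.41 ± 0.64 and the diacylglycerol kinase DGKB by -5.35 ± 0.59 and -5.87 ± 0.48. The orphan receptor MRGPRF differed by -5.55 ± 0.69 and -5.93 ± 0.69 and the potassium channel subunit KCNG1 by -5.55 ± 0.38 and -5.62 ± 0.46. The secreted proteins C1QTNF7, PODN and SBSPON differed by -5.66 ± 0.66 and -6.37 ± 0.43, -5.71 ± 0.41 and -6.06 ± 0.38 and -5.40 ± 0.78 and -5.83 ± 0.81. PODN and SBSPON were highest in theca of sheep 209, at 5953 and 3153.

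Granulosa markers were higher in the libraries labelled granulosa. Of 16 measured markers, 15 were called higher in granulosa and 0 higher in theca without sheep 209, and 9 and 0 over 5 pairs. The background shares of granulosa calls were 24% and 16.3%. The median layer difference of the list was 2.29 and 1.56, against -0.0036 and 0.014 over all genes tested. AMH, which restrains follicle growth, stood at 0, 4801, 4056, 7774 and 3652 in granulosa and 0, 895, 608, 1569 and 683 in theca (1.98 ± 0.39 over 5 pairs and 2.47 ± 0.09 without sheep 209, limma adjusted p = 0.0109 and 8.77e-06). Its levels did not overlap between layers outside sheep 209. FSHR, through which follicle-stimulating hormone acts, stood at 0, 1983, 2465, 3281 and 1105 in granulosa and 0, 477, 318, 697 and 184 in theca (1.96 ± 0.41 and 2.45 ± 0.15). INHA, the inhibin alpha subunit, stood at 8.05, 9914, 14803, 25895 and 38080.4 in granulosa and 7.59, 2134, 2033, 6549.6 and 3969.6 in theca (2.08 ± 0.43 and 2.58 ± 0.20). CYP19, the aromatase that makes estrogens, spread far more between sheep, at 0, 75.4, 202, 319.7 and 4069 in granulosa and 0, 13.9, 17.8, 78.8 and 191 in theca (2.44 ± 0.61 and 3.05 ± 0.38), and sheep 315 was more than 10 times above the others in granulosa.

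The beta subunits of activins and inhibins went in opposite directions in sheep 209 and the rest. INHBA, the beta A subunit, stood at 330.2, 5293, 11825, 19596 and 60870.2 in granulosa and 5857, 2349, 2039, 7207 and 6718 in theca. Its layer difference was 0.84 ± 1.01 over 5 pairs, which was not called (adjusted p = 0.557), and 2.08 ± 0.31 without sheep 209, which was (limma). INHBB, the beta B subunit, stood at 115, 6963, 8413, 12712 and 10362 in granulosa and 1450.0, 1616, 1251, 2557 and 1211 in theca (1.32 ± 0.97 and 2.57 ± 0.16) and was likewise called without sheep 209 alone. FST, follistatin, which binds activins, was called in both fits at 1.94 ± 0.51 and 2.57 ± 0.14. HSD17B1, which turns estrone into estradiol, and NR5A2, a nuclear receptor needed for ovulation, differed by 1.80 ± 0.33 and 2.21 ± 0.10 and 2.004 ± 0.42 and 2.51 ± 0.15, and SERPINE2, a protease inhibitor of granulosa cells, by 1.87 ± 0.30 and 2.16 ± 0.21. CDH2, the cadherin that joins granulosa cells, stood at 35.7, 20266, 21578, 17835 and 12638 in granulosa and 664, 4844, 3285, 3703 and 2411 in theca. Its difference of 2.36 ± 0.11 was called without sheep 209 only (1.05 ± 1.02 over 5 pairs). HSD17B7, an enzyme of estrogen and cholesterol synthesis, was called in both fits (0.79 ± 0.16 and 0.89 ± 0.16).

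Not all granulosa markers separated the layers widely. FOXL2, the factor that keeps granulosa identity, stood at 36.8, 5478, 6588, 8151 and 5391 in granulosa and 206, 4382, 4482, 4669.8 and 3898 in theca. A difference of 0.54 ± 0.09 was called without sheep 209. Over 5 pairs its value was -0.06 ± 0.47, with the opposite sign, and it was not called (adjusted p = 0.936). ESR2, the estrogen receptor beta, stood at 1.15, 270.2, 232, 327 and 207 in granulosa and 1.27, 223, 176, 225 and 144 in theca (0.33 ± 0.18 and 0.43 ± 0.12), called without sheep 209 only. GATM, an enzyme of creatine synthesis, was called in neither fit, at 0.11 ± 0.19 and 0.21 ± 0.18. For the 15 called markers, the theca level was 19.9% of the granulosa level at the median over the 4 sheep other than 209, from 13.6% for CYP19 to 72.7% for ESR2, and 18.7% for AMH. The part of granulosa RNA in the theca libraries was not tested.

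**Figure D2:**
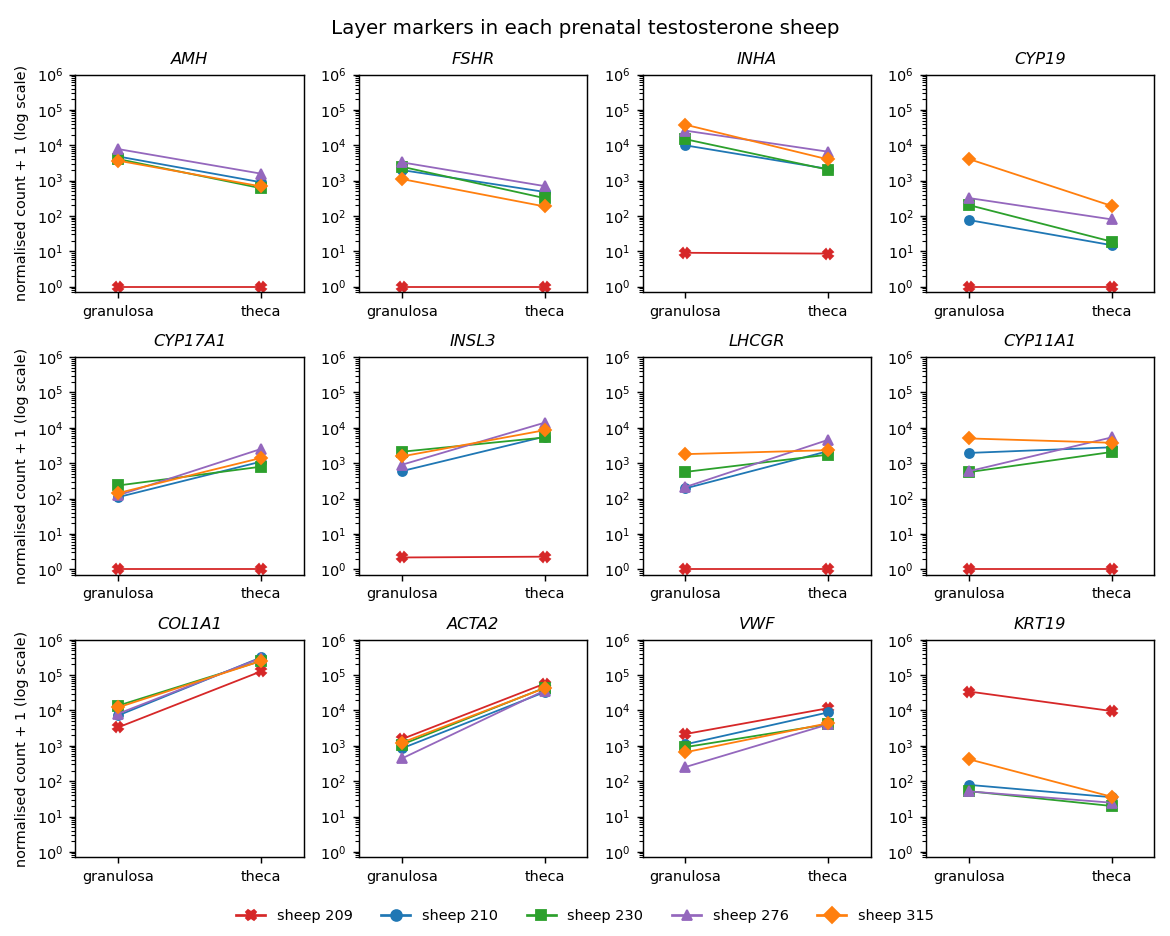
Normalised count plus 1, on a log axis, of 12 layer markers in granulosa and theca of each prenatal T sheep, with a line joining the layers of a sheep. Sheep 209 lies at a level of 0 in both layers for AMH, FSHR, CYP19, CYP17A1, LHCGR and CYP11A1, follows the other sheep for COL1A1 and ACTA2, and is far above them for KRT19 (34370 in granulosa).

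Theca endocrine genes were higher in theca, with a wide spread among the sheep. Of 9 measured markers, 6 were called higher in theca and 2 higher in granulosa without sheep 209 (theca background 25.3%, granulosa background 24%). Over 5 pairs the counts were 4 and 2 (theca background 17.3%, granulosa background 16.3%). CYP17A1, the enzyme that commits steroids to androgens, stood at 0, 109, 233, 123 and 142 in granulosa and 0, 1105, 795, 2523 and 1404 in theca (-2.55 ± 0.60 over 5 pairs and -3.19 ± 0.36 without sheep 209, limma adjusted p = 0.0199 and 0.000405), without overlap outside sheep 209. INSL3, a peptide hormone of theca cells, stood at 1.15, 595, 2105, 901 and 1555 in granulosa and 1.27, 5638, 5342, 13965 and 8565 in theca (-2.21 ± 0.54 and -2.75 ± 0.37). LHCGR, the receptor of luteinizing hormone, stood at 0, 193, 565, 211 and 1802 in granulosa and 0, 2189, 1745, 4564 and 2335 in theca. The granulosa library of sheep 315 was inside the theca range. Its difference of -2.48 ± 0.60 was called without sheep 209, and that of -1.99 ± 0.68 over 5 pairs was not. The 2 markers called higher in granulosa were NR5A1, the steroidogenic factor 1 of both layers, and CYB5A, a cytochrome b5 that aids CYP17A1, at 0.54 ± 0.12 and 0.43 ± 0.07 and 0.68 ± 0.11 and 0.70 ± 0.11. In sheep 209 NR5A1 stood at 3.45 in granulosa and 1.27 in theca, the levels of 3 reads and 1 read. Its difference there was 0.97, against 0.24 to 0.54 in the other sheep.

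The first steps of steroid synthesis had layer differences of varied size. STAR, which carries cholesterol into mitochondria, stood at 197, 234, 98.9, 95.1 and 1853 in granulosa and 225, 515, 288, 1465 and 2375 in theca (-1.43 ± 0.53 and -1.74 ± 0.51) and was called without sheep 209 only. CYP11A1, which cuts the cholesterol side chain, stood at 0, 1949.8, 558, 591 and 5014 in granulosa and 0, 2809.9, 2070.2, 5356 and 3781 in theca and was called in neither fit (-1.04 ± 0.52 and -1.30 ± 0.51, adjusted p = 0.166 and 0.0721). HSD3B1 stood at 1.15, 65.7, 277, 121 and 1346 in granulosa and 1.27, 851, 1125, 1714 and 2512 in theca. FDX1, the electron donor of CYP11A1, stood at 388, 392, 541, 493 and 1376 in granulosa and 364, 1045, 1033, 2541 and 2425 in theca. Their differences of -2.09 ± 0.58 and -2.60 ± 0.46 and -1.09 ± 0.32 and -1.38 ± 0.24 were called in both fits. Across the whole steroid synthesis list of 19 measured genes, 6 were called in each direction without sheep 209 and 5 in each over 5 pairs, beside backgrounds of 24% and 25.3% and of 16.3% and 17.3%. Granulosa of sheep 315 held the highest level of CYP19, LHCGR, STAR, CYP11A1, HSD3B1 and INHBA among the granulosa libraries. The granulosa level of the 6 theca endocrine genes called was 18.4% of the theca level at the median, and by sheep 10.2% in 210, 33.4% in 230, 6.47% in 276 and 55.2% in 315. The part of theca RNA in these granulosa libraries was not tested.

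The supporting tissue of the theca gave the widest separation. All 16 measured stroma markers were called higher in theca in both fits, with a median of -3.42 over 5 pairs and -3.68 without sheep 209. The theca backgrounds of these fits were 17.3% and 25.3%. COL1A1, a chain of type I collagen, stood at 3337, 7248, 13710.2, 8116 and 12277 in granulosa and 127254, 315714, 251942, 303359 and 250557 in theca (-4.89 ± 0.23 over 5 pairs and -4.80 ± 0.24 without sheep 209, limma adjusted p = 0.00016 and 2.15e-05). COL1A2 and COL3A1 differed by -4.75 ± 0.22 and -4.82 ± 0.22 and -4.32 ± 0.23 and -4.44 ± 0.21. MFAP4, a protein of elastic microfibrils, stood at 379.7, 18.3, 32.3, 13.8 and 39.1 in granulosa and 5482, 1373, 1613, 725 and 1785 in theca (-5.34 ± 0.32 and -5.71 ± 0.16), and its granulosa level was 1.95% of the theca level at the median over the 4 sheep. None of these 4 genes overlapped between layers, sheep 209 included. DCN, the small proteoglycan decorin, and TCF21, a mesenchymal transcription factor, differed by -3.37 ± 0.42 and -3.71 ± 0.36 and -3.42 ± 0.21 and -3.66 ± 0.12.

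Smooth muscle genes, of the theca externa and vessel walls, did likewise with exceptions. Of 17 measured, 15 were called higher in theca in each fit, with a median of -2.95 over 5 pairs and -2.85 without sheep 209 (theca backgrounds 17.3% and 25.3%). ACTA2, smooth muscle actin, stood at 1545, 843, 1083, 437 and 1228 in granulosa and 56967, 33019.9, 43605, 36602 and 42624 in theca (-5.47 ± 0.19 and -5.53 ± 0.20), DES, the muscle intermediate filament desmin, at 1474, 60.3, 39.2, 43.5 and 266 in granulosa and 38804, 3623, 2437, 3003 and 5007 in theca (-5.37 ± 0.30 and -5.53 ± 0.29). MYLK, myosin light chain kinase, stood at 1488, 748, 1117, 481 and 1114 in granulosa and 33652, 23992, 28930.0, 24633 and 32825 in theca (-4.95 ± 0.17 and -5.06 ± 0.15). LMOD1, leiomodin, differed by -4.66 ± 0.23 and -4.81 ± 0.22. ACTA2, DES and MYLK did not overlap between layers. MYH11, the smooth muscle myosin heavy chain, stood at 4637, 23419, 21101, 16363 and 11242 in granulosa and 109930.0, 84433, 68403, 82559 and 88788 in theca (-2.69 ± 0.42 and -2.22 ± 0.22) and kept granulosa levels of 11242 to 23419 outside sheep 209. Pericyte genes of the list went both ways. RGS5, NOTCH3 and KCNJ8 were called higher in theca without sheep 209. Their granulosa levels were 13.2%, 13.6% and 20.4% of the theca level at the median over the sheep other than 209. CSPG4 and MCAM were called in neither fit. CSPG4 stood at 156, 458, 555, 1007 and 718 in granulosa and 2641, 678, 639, 852 and 684 in theca (-0.91 ± 0.62 and -0.11 ± 0.14). MCAM stood at 299, 1179, 1342, 1182 and 929.5 in granulosa and 3334, 1535, 1139.8, 1302 and 1820.4 in theca (-0.95 ± 0.52 and -0.31 ± 0.18). For both the widest excess of theca over granulosa was in sheep 209.

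Vessel genes followed. Of 19 endothelial markers, 18 were called higher in theca in both fits, with a median of -2.49 over 5 pairs and -2.56 without sheep 209 (theca backgrounds 17.3% and 25.3%). VWF, the von Willebrand factor, stood at 2154, 1099, 916, 249.8 and 655 in granulosa and 11579, 8793, 4068, 4029 and 4351 in theca (-2.86 ± 0.25 and -2.97 ± 0.26), and its layers did not overlap. PECAM1, CDH5 and TEK, an adhesion molecule, a cadherin and the angiopoietin receptor, differed by -2.12 ± 0.26 and -2.37 ± 0.19, -2.26 ± 0.22 and -2.24 ± 0.24 and -1.82 ± 0.20 and -1.61 ± 0.14. The exception was FLT1, a receptor of vascular endothelial growth factor, at 199, 614, 807, 639 and 502 in granulosa and 721, 789, 606, 780.2 and 517 in theca (-0.43 ± 0.30 and -0.07 ± 0.14). The granulosa level of the called endothelial genes was 17.4% of the theca level at the median over the 4 sheep, and no listed endothelial or stroma marker was at 0 in a granulosa library. Of 18 immune markers, 11 were called higher in theca without sheep 209 and 6 over 5 pairs, beside theca backgrounds of 25.3% and 17.3%, and 0 were called higher in granulosa. CD3E, of the T cell receptor, stood at 42.6, 14.0, 17.6, 4.58 and 32.0 in granulosa and 79.7, 106, 81.6, 41.0 and 117 in theca (-2.12 ± 0.36 and -2.43 ± 0.31). PTPRC, the pan-leukocyte antigen, and CSF1R, the macrophage growth factor receptor, were called without sheep 209 only, at -1.39 ± 0.44 and -1.77 ± 0.36 and -1.54 ± 0.49 and -1.63 ± 0.53. CD68, a lysosomal protein of macrophages, was not called (0.13 ± 0.28 and 0.34 ± 0.25).

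**Figure D3:**
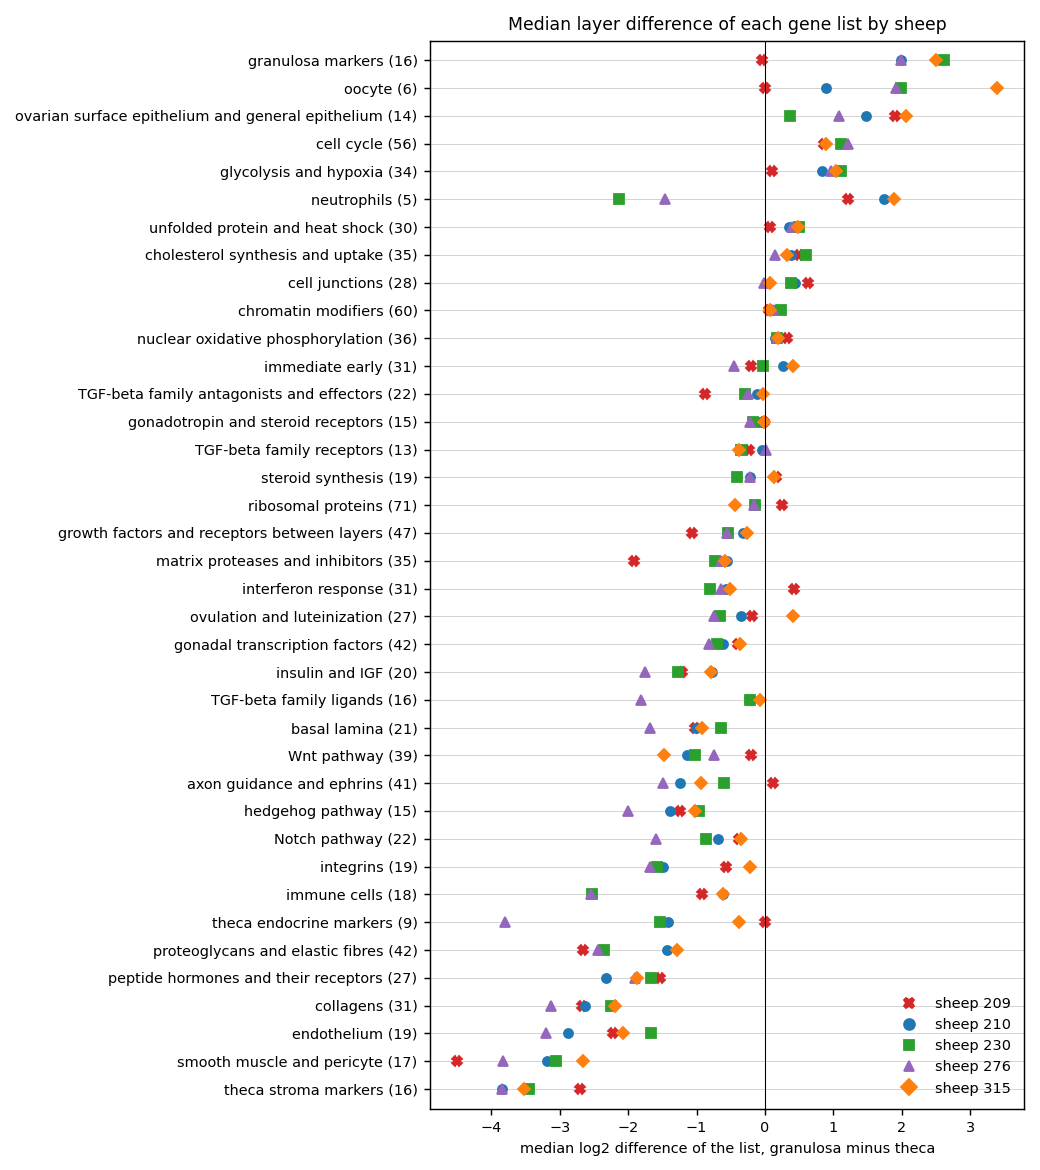
Median layer difference of each of the 38 gene lists in each prenatal T sheep, with the number of measured genes in brackets. Lists run from those higher in granulosa at the top to those higher in theca at the bottom. The granulosa marker median of sheep 209 lies near 0 while its stroma, smooth muscle and endothelium medians lie on the theca side with those of the other sheep.

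Collagens and proteoglycans were mostly on the theca side. Their lists share 3 and 5 genes with the stroma markers. The theca backgrounds were 25.3% without sheep 209 and 17.3% over 5 pairs, and the granulosa backgrounds 24% and 16.3%. For collagens, proteoglycans and proteases the theca counts lie above the theca backgrounds and the granulosa counts below the granulosa backgrounds. Of 31 measured collagens, 26 were called higher in theca and 1 higher in granulosa without sheep 209, with a median of -2.56, and 27 and 1 over 5 pairs. COL6A3, a chain of microfibrillar collagen, stood at 2560.2, 942, 1108, 665 and 1409 in granulosa and 38661, 14639.7, 12808, 12325 and 16602 in theca (-3.83 ± 0.12 and -3.81 ± 0.12). COL11A1, of a minor fibrillar collagen, stood at 20.7, 252, 701, 133 and 189 in granulosa and 1839.7, 2472, 6941, 2717 and 2988 in theca (-4.26 ± 0.45 and -3.73 ± 0.18). Of 42 proteoglycans and elastic fibre genes, 28 were called higher in theca and 5 higher in granulosa without sheep 209, and 26 and 1 over 5 pairs, among them ECM2 and PRELP in theca (-3.01 ± 0.21 and -2.76 ± 0.09 and -4.48 ± 0.21 and -4.59 ± 0.21). VCAN, the large proteoglycan versican of the expanding cumulus, went the other way. It stood at 6757, 28878, 38619, 40526 and 29873 in granulosa and 80403, 9566, 13344, 9963 and 8690.2 in theca. It was higher in granulosa of every sheep but 209, with a difference of 1.73 ± 0.11 that was called without sheep 209 and of 0.67 ± 0.83 over 5 pairs that was not. Of 35 proteases and inhibitors, 17 were called higher in theca and 6 higher in granulosa without sheep 209, and 13 and 4 over 5 pairs, with MMP2, a gelatinase, at -3.81 ± 0.29 and -4.14 ± 0.15 and ADAMTS7, a metalloprotease, at 1.33 ± 0.35 and 1.76 ± 0.09.

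Basal lamina genes were more often called higher in theca. Of 21 measured, 13 were called higher in theca and 4 higher in granulosa without sheep 209, and 9 and 1 over 5 pairs. The granulosa counts lie below the granulosa backgrounds of 24% and 16.3%, the theca counts above the theca backgrounds of 25.3% and 17.3%. Type IV collagen trimers combine alpha 3, 4 and 5 chains or alpha 5 and 6 chains besides the common alpha 1 and 2 form. COL4A3, COL4A4 and COL4A5 were singled out after their values were seen. COL4A3 stood at 19.6, 3177, 2823, 3403 and 1787 in granulosa and 41.8, 1270.0, 854, 1919 and 1233 in theca. COL4A4 stood at 46.0, 11064, 10297, 11324 and 6997 in granulosa and 81.0, 4778, 3570.1, 7224 and 3443 in theca. Their differences of 1.10 ± 0.18 and 1.10 ± 0.14 were called without sheep 209, and those of 0.67 ± 0.38 and 0.72 ± 0.32 over 5 pairs were not. COL4A5 stood at 1698, 295, 512, 175 and 689 in granulosa and 1525, 2933, 3371, 2602 and 3111 in theca (-2.39 ± 0.54 and -3.02 ± 0.25). COL4A6 stood at 594, 131, 262, 112 and 332 in granulosa and 549, 1697, 1493, 1284 and 1839 in theca (-2.41 ± 0.53 and -3.04 ± 0.22), both called higher in theca in both fits. LAMA2 and LAMA4, laminin chains of muscle and vessels, and NID1, the laminin linker nidogen, differed by -2.90 ± 0.34 and -3.31 ± 0.13, -2.47 ± 0.12 and -2.43 ± 0.13 and -3.43 ± 0.31 and -3.71 ± 0.25. Of 19 integrins, 11 were called higher in theca and 4 higher in granulosa without sheep 209, and 9 and 3 over 5 pairs. ITGA6, a laminin receptor subunit, was higher in granulosa at 3678, 11442, 14708, 20143 and 10306 in granulosa and 1869, 3764, 3686, 5120.3 and 3211 in theca (1.65 ± 0.16 and 1.81 ± 0.09). In contrast, ITGA1 and ITGA8, subunits of collagen and fibronectin receptors, were higher in theca (-3.14 ± 0.10 and -3.21 ± 0.10 and -3.58 ± 0.10 and -3.64 ± 0.11), as was ITGA9 (-2.86 ± 0.45 and -3.38 ± 0.23). Among 28 junction genes, 12 were called higher in granulosa and 8 higher in theca without sheep 209, and 8 and 7 over 5 pairs, with the nectin NECTIN1 at 1.66 ± 0.10 and 1.73 ± 0.09 and the mesenchymal cadherin CDH11 at -3.16 ± 0.11 and -3.10 ± 0.11.

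Egg genes were found on the granulosa side at low levels. Of 14 listed, 6 passed the filter on low levels, and 5 of them were called higher in granulosa without sheep 209 and 3 over 5 pairs. The filter could be passed through the granulosa libraries alone, so this count is not support for a difference. BMP15, a growth factor of the egg, stood at 0, 18.3, 11.8, 24.1 and 35.5 in granulosa and 0, 0, 1.05, 0 and 0 in theca (3.35 ± 0.84 and 4.19 ± 0.63). ZP3, a protein of the egg coat, stood at 0, 52.8, 10.8, 28.7 and 105 in granulosa and 1.27, 0, 1.05, 0 and 1.14 in theca (3.52 ± 1.08 and 4.70 ± 0.67). ZP2, another coat protein, and GDF9, the partner of BMP15, differed by 1.75 ± 0.52 and 2.18 ± 0.42 and 1.56 ± 0.53 and 1.87 ± 0.53, GDF9 being called without sheep 209 only. NLRP8, a gene known from the egg and singled out after its values were seen, stood at 0, 67.8, 20.6, 68.8 and 168 in granulosa and 0, 0, 0, 0 and 0 in theca. It was at 0 in all 5 theca libraries and in granulosa of sheep 209. DDX4, a germ cell helicase, was not called (-0.10 ± 0.54 and -0.57 ± 0.48). Over the 4 sheep the summed level of the listed egg genes was 1174 to 1829 in granulosa and 382 to 787 in theca, most of it KIT, which theca also carries.

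Epithelial genes were more often called on the granulosa side, at levels that differed greatly between sheep. Of 14 measured, 8 were called higher in granulosa and 2 higher in theca in both fits, beside granulosa backgrounds of 24% without sheep 209 and 16.3% over 5 pairs and theca backgrounds of 25.3% and 17.3%. CDH1, the epithelial cadherin, stood at 15271, 114, 21.6, 21.8 and 292 in granulosa and 3153, 32.0, 4.19, 7.17 and 28.4 in theca (2.20 ± 0.29 and 2.18 ± 0.38), and KRT19 differed by 1.79 ± 0.37 and 1.78 ± 0.44. The 2 called higher in theca were LHX9 and WT1, the Wilms tumour factor, at -1.60 ± 0.37 and -1.16 ± 0.15 for the latter. KRT7, a keratin of ducts and surface epithelium, was not called, at 21819, 19.4, 6.86, 1.15 and 4.74 in granulosa and 5395, 42.7, 15.7, 31.7 and 2.28 in theca (-0.66 ± 0.81 and -1.33 ± 0.75). Of 5 measured neutrophil genes, LTF was called higher in granulosa in both fits (2.40 ± 0.30 and 2.40 ± 0.48) and FCGR3A, an antibody receptor, higher in theca without sheep 209 only (-1.72 ± 0.62 and -2.12 ± 0.60). The other 3 were called in neither fit, among them S100A9 and CSF3R (0.78 ± 0.66 and 0.67 ± 0.80 and -1.02 ± 0.96 and -1.28 ± 1.14), and CSF3R stood at 13359, 16.1, 0, 0 and 0 in granulosa and 13363, 1.07, 4.19, 3.07 and 12.5 in theca.

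Hedgehog signals pass from granulosa to theca, where PTCH1, GLI1 and HHIP are targets of the pathway as well as parts of it. Besides IHH, 10 of the 15 measured genes of the pathway were called higher in theca in both fits, against theca backgrounds of 17.3% over 5 pairs and 25.3% without sheep 209. GLI1, the transcription factor that serves as readout of the pathway, stood at 12.7, 36.6, 45.1, 34.4 and 24.9 in granulosa and 115, 543, 517, 484 and 400.5 in theca (-3.63 ± 0.19 and -3.77 ± 0.16). PTCH1, the receptor, stood at 680.0, 1807, 2211, 1521 and 1242 in granulosa and 1329.8, 5936, 6202, 6355 and 4059.5 in theca (-1.59 ± 0.15 and -1.74 ± 0.10). Neither gene had overlapping layers outside sheep 209. HHIP and SMO, a decoy receptor and the signal transducer, were singled out after their values were seen and differed by -2.76 ± 0.42 and -3.18 ± 0.29 and -0.92 ± 0.12 and -0.84 ± 0.11. CDON, a co-receptor, differed by -1.90 ± 0.17 and -2.07 ± 0.12. In sheep 209 IHH was at 1.15 in granulosa and 0 in theca, and GLI1 at 12.7 and 115. Each of these levels was below those of the other sheep in the same layer. A link between the levels of IHH and GLI1 was not tested.

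IGF1 and IGF2, the insulin-like growth factors, were higher in theca. IGF1 stood at 321, 68.9, 71.5, 19.5 and 148 in granulosa and 7043, 2122, 2093, 1746 and 2978 in theca (-4.99 ± 0.30 and -5.13 ± 0.31). IGF2 stood at 165, 837, 1617, 595 and 877 in granulosa and 1275, 6082, 6745, 5325 and 5623 in theca (-2.74 ± 0.16 and -2.69 ± 0.16), and neither had overlapping layers outside sheep 209. IGFBP3 and IGFBP4, which bind and hold the growth factors, differed by -2.39 ± 0.42 and -2.84 ± 0.26 and -3.26 ± 0.19 and -3.36 ± 0.19. IGF1R and INSR, the IGF1 and insulin receptors, singled out after their values were seen, stood at 13092 ± 2258 in granulosa and 7699 ± 2495 in theca and at 7182 ± 1226 in granulosa and 5224 ± 951 in theca (SD, n = 4, without sheep 209). Their differences of 0.72 ± 0.17 and 0.82 ± 0.16 and 0.39 ± 0.12 and 0.46 ± 0.10 were called in both fits, but that of INSR in 7 of the 15 alternatives run. IGF2R, the receptor that clears IGF2, differed by 0.56 ± 0.11 and 0.56 ± 0.12 and was called in both fits. Over the 20 measured genes of the insulin and IGF list, 10 were called higher in theca and 7 higher in granulosa without sheep 209, and 10 and 3 over 5 pairs (theca backgrounds 25.3% and 17.3%, granulosa backgrounds 24% and 16.3%).

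VEGFA and its receptor KDR differed in opposite directions. VEGFA, the vascular endothelial growth factor, stood at 1186, 2449, 3372, 3087 and 2683 in granulosa and 1741, 732, 569, 712 and 540.4 in theca (1.64 ± 0.44 and 2.18 ± 0.13). Its receptor KDR stood at 1022, 661, 1305, 611 and 732 in granulosa and 1971, 3226, 3129, 3184 and 2675 in theca (-1.75 ± 0.23 and -1.95 ± 0.18). Both were called in both fits, while FLT1, the other receptor given above, was called in neither. VEGFA levels did not overlap outside sheep 209, where the order of the layers was reversed. ADM, adrenomedullin, a peptide that acts on vessels, was singled out after its values were seen and stood at 184, 2624, 4621, 2598 and 3439.9 in granulosa and 534, 1126, 828, 933 and 1274 in theca, called without sheep 209 (1.65 ± 0.19) but not over 5 pairs (1.02 ± 0.52). CALCRL and RAMP2, which together form its receptor, were higher in theca, at -3.00 ± 0.21 and -3.14 ± 0.20 and -2.16 ± 0.23 and -2.39 ± 0.17. PDGFD, a platelet-derived growth factor, and the receptors PDGFRA and PDGFRB were all higher in theca, at -2.82 ± 0.10 and -2.78 ± 0.10, -2.91 ± 0.21 and -2.97 ± 0.22 and -2.08 ± 0.30 and -2.06 ± 0.32. So were the heparin-binding growth factor PTN and the chemokine CXCL12 (-4.18 ± 0.16 and -4.09 ± 0.15 and -2.92 ± 0.17 and -2.95 ± 0.19). KITLG, the kit ligand of granulosa cells, stood at 148, 2430.0, 3035, 1943 and 2764 in granulosa and 301, 1121, 1010.0, 936 and 964 in theca (0.85 ± 0.38 and 1.32 ± 0.11). Its receptor KIT, carried by the egg and by theca, stood at 162, 1019, 1325, 1209 and 1541 in granulosa and 215, 737, 345, 747 and 559 in theca and was likewise higher in granulosa without sheep 209 (0.83 ± 0.32 and 1.14 ± 0.23), the only fit in which either gene was called.

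**Figure D4:**
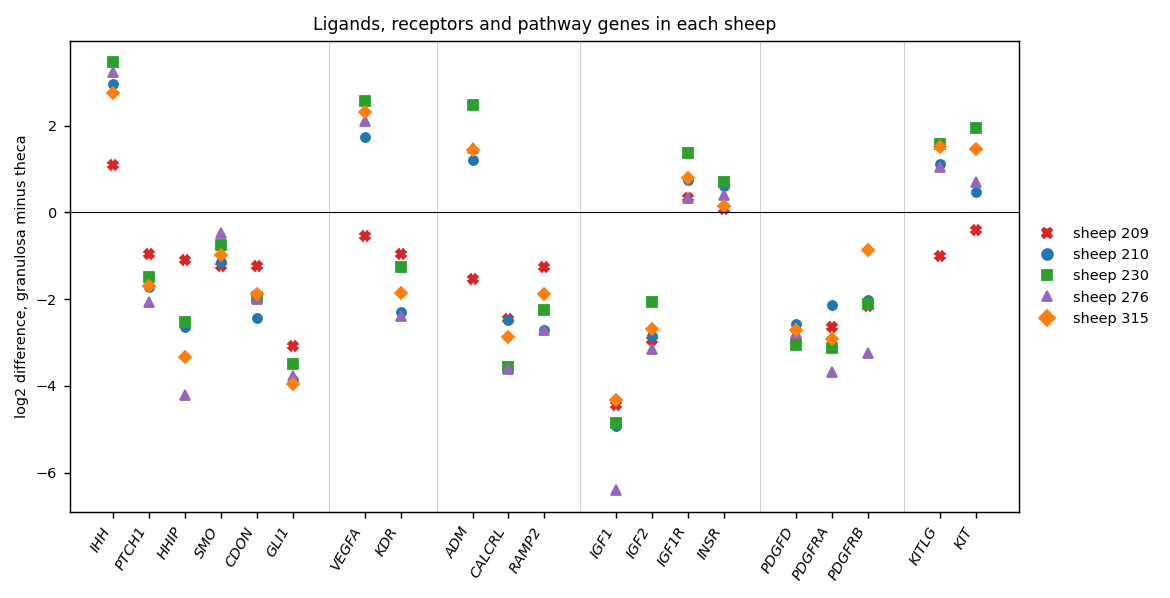
Layer difference, granulosa minus theca on the log2 scale, of 20 ligands, receptors and pathway genes in each prenatal T sheep. IHH, VEGFA and ADM lie above 0 in sheep 210, 230, 276 and 315 while PTCH1, GLI1, KDR, CALCRL and RAMP2 lie below 0 in all 5, and IGF1 and IGF2 lie below 0 while IGF1R lies above it.

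Ligands of the transforming growth factor family were called in both directions. Of 16 measured ligands, 6 were called higher in granulosa and 9 higher in theca without sheep 209, and 3 and 5 over 5 pairs, where the granulosa count is near its background of 16.3% (24% without sheep 209, theca 25.3% and 17.3%). The ligands called higher in granulosa without sheep 209 were AMH, INHA, INHBA, INHBB and the egg genes BMP15 and GDF9. BMP15 passed the filter on low levels through granulosa libraries alone, so its call does not support the count. BMP6, a bone morphogenetic protein, stood at 61.0, 46.3, 44.1, 11.5 and 110.1 in granulosa and 1101, 196, 262, 146 and 302 in theca (-2.75 ± 0.41 and -2.40 ± 0.34). Of 13 receptors, 6 were called in each direction without sheep 209, and 3 higher in granulosa and 6 higher in theca over 5 pairs. TGFBR2 and ACVRL1, receptors of transforming growth factor beta and of endothelial bone morphogenetic proteins, were higher in theca (-2.33 ± 0.30 and -2.58 ± 0.25 and -2.22 ± 0.19 and -2.19 ± 0.21), and BMPR1A differed little (-0.57 ± 0.13 and -0.71 ± 0.07) though it was called in both fits. LTBP4, which stores the growth factor in the matrix, differed by -4.41 ± 0.27 and -4.65 ± 0.21. SMAD2, a transducer of activin signals, stood at 1388, 7578, 8419, 9172 and 5759.6 in granulosa and 1585, 2981, 2567, 3433 and 2463 in theca (1.10 ± 0.27 and 1.43 ± 0.09), and CHRDL1, an antagonist of bone morphogenetic proteins, was called higher in granulosa without sheep 209 only (0.65 ± 0.64 and 1.45 ± 0.17).

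Notch, Wnt and guidance genes were more often called on the theca side. Of 22 Notch genes, 14 were called higher in theca and 2 higher in granulosa without sheep 209, and 8 and 0 over 5 pairs, beside theca backgrounds of 25.3% and 17.3% and granulosa backgrounds of 24% and 16.3%. NOTCH3, the receptor of mural cells, and its target HEYL were higher in theca (-2.12 ± 0.58 and -2.81 ± 0.25 and -2.44 ± 0.27 and -2.65 ± 0.24). HEY2, a related target gene, stood at 10.4, 576, 757, 589 and 654 in granulosa and 45.6, 196, 129, 143 and 198 in theca, called higher in granulosa without sheep 209 only (1.16 ± 0.64 and 1.96 ± 0.17). Of 39 Wnt genes, 19 were called higher in theca and 8 higher in granulosa without sheep 209, and 16 and 4 over 5 pairs, the granulosa counts being below background, among them the secreted inhibitor SFRP2 and the receptors FZD1 and FZD4 in theca (-2.72 ± 0.42 and -2.20 ± 0.12, -1.92 ± 0.37 and -1.46 ± 0.10 and -1.95 ± 0.14 and -2.03 ± 0.14). Of 41 axon guidance and ephrin genes, 24 were called higher in theca and 6 higher in granulosa without sheep 209, and 15 and 4 over 5 pairs, SLIT2 and SLIT3 at -3.92 ± 0.23 and -4.10 ± 0.20 and -3.93 ± 0.39 and -4.31 ± 0.30. Of the receptors for vasoactive peptides, 2 are named here by their small p. EDNRA for endothelin differed by -4.26 ± 0.45 and -4.77 ± 0.24, and AGTR1 for angiotensin stood at 6.90, 14.0, 25.5, 22.9 and 24.9 in granulosa and 17.7, 334, 448, 289 and 437 in theca (-3.50 ± 0.49 and -4.06 ± 0.21).

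Transcription factors of the gonad were called in both directions. Of 42 measured, 21 were called higher in theca and 13 higher in granulosa without sheep 209, and 19 and 8 over 5 pairs (theca backgrounds 25.3% and 17.3%, granulosa backgrounds 24% and 16.3%). RUNX1, a factor of granulosa fate, stood at 2642, 2077, 1424, 1712 and 1494 in granulosa and 2608, 584, 366, 432 and 374 in theca (1.56 ± 0.31 and 1.94 ± 0.07), without overlap outside sheep 209, whose layers differed by 0.019. NR2F2 and NR2F1, orphan receptors of stromal cells, stood at 1121, 1123, 1388, 855 and 1107 in granulosa and 3982, 7820.4, 8019, 7032 and 10041 in theca (-2.67 ± 0.19 and -2.89 ± 0.11) and 70.2, 59.2, 107, 35.5 and 62.8 in granulosa and 701, 851, 589, 543 and 767 in theca (-3.41 ± 0.23 and -3.44 ± 0.25). Both were lower in granulosa of every sheep. PGR, the progesterone receptor, was higher in theca in all 5 sheep, at 492, 443, 693, 303 and 727 in granulosa and 2271, 2169, 2364, 1336 and 2045 in theca (-1.98 ± 0.13 and -1.92 ± 0.13), and KLF2, a factor of endothelium under flow, differed by -2.52 ± 0.45 and -2.98 ± 0.31.

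Cell division genes were higher in granulosa with and without sheep 209. Of 56 measured, 47 were called higher in granulosa and 2 higher in theca over 5 pairs, and 50 and 3 without sheep 209, with medians of 1.08 and 1.12. The granulosa backgrounds of these fits were 16.3% and 24%, and the theca backgrounds 17.3% and 25.3%. CDK1, the kinase of mitotic entry, stood at 389, 636, 1186, 1085 and 799 in granulosa and 148, 232, 476, 445 and 299 in theca (1.37 ± 0.08 over 5 pairs and 1.37 ± 0.08 without sheep 209, limma adjusted p = 0.00028 and 3.76e-05). CENPF, a kinetochore protein, stood at 3728, 8953, 19885, 15879.5 and 9082 in granulosa and 989, 3495, 7591, 6513 and 4432 in theca (1.40 ± 0.13 and 1.27 ± 0.09). Each sheep held more of both genes in granulosa, though the layers overlapped across sheep. CCND2, the D-type cyclin known for granulosa growth under follicle-stimulating hormone, stood at 422, 2964, 3401, 4683 and 3569 in granulosa and 1541, 1230.5, 1301, 1516 and 1389 in theca (0.76 ± 0.51 and 1.41 ± 0.08) and was called without sheep 209 only. CDK6, its kinase partner, differed by 1.44 ± 0.26 and 1.74 ± 0.12. The 3 genes called higher in theca without sheep 209 were CCND1, CCND3 and the inhibitor CDKN1C, singled out for that reason. CCND1 stood at 3383, 67.8, 166, 102 and 90.0 in granulosa and 1854, 450.4, 445, 535 and 362 in theca (-1.53 ± 0.50 and -2.13 ± 0.22), CCND3 at 1652, 327, 245, 202 and 569.6 in granulosa and 1971, 758, 754, 746 and 1083 in theca (-1.18 ± 0.23 and -1.41 ± 0.16). CDKN1C stood at 72.5, 379, 284, 110.0 and 214 in granulosa and 249, 860.2, 625, 910.2 and 802 in theca (-1.80 ± 0.28 and -1.81 ± 0.30). CCND1 was higher in granulosa of sheep 209 and higher in theca of the other 4, and it was not called over 5 pairs. UHRF1, which maintains DNA methylation at replication, and TET1, which removes it, differed in opposite directions (1.23 ± 0.12 and 1.22 ± 0.13 and -1.26 ± 0.17 and -1.05 ± 0.07).

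Genes of glycolysis and hypoxia were also granulosa genes. Of 34 measured, 25 were called higher in granulosa and 2 higher in theca without sheep 209, with a median of 0.98, and 22 and 1 over 5 pairs. For this list and those that follow here, the granulosa backgrounds were 24% and 16.3% and the theca backgrounds 25.3% and 17.3%. HK2, a hexokinase that hypoxia induces, stood at 1266, 724, 791, 948 and 1050.3 in granulosa and 1143, 143, 82.7, 137 and 119 in theca (2.33 ± 0.45 and 2.87 ± 0.16). PFKFB3, which drives glycolysis, stood at 3535, 2165, 2743, 2709 and 1988 in granulosa and 3899.6, 523, 358, 462 and 337 in theca (1.99 ± 0.43 and 2.52 ± 0.14). HIF1A, the hypoxia-inducible factor, stood at 23482, 16854, 26176, 31968 and 20609 in granulosa and 20047, 5926, 5445, 8961 and 6056 in theca (1.52 ± 0.28 and 1.84 ± 0.13). These 3 genes did not overlap between layers outside sheep 209, in which the layers were much closer. Nuclear genes of oxidative phosphorylation gave 14 of 36 called higher in granulosa and 0 higher in theca without sheep 209, and 13 and 0 over 5 pairs, among them SDHB (0.72 ± 0.13 and 0.85 ± 0.07), with a median of 0.15 that was small beside those of the lists above. Their granulosa counts were above the granulosa backgrounds. In either direction 38.9% of them were called without sheep 209, below the 49.3% over all genes. Of 35 cholesterol genes, 18 were called higher in granulosa and 3 higher in theca without sheep 209, and 15 and 2 over 5 pairs, with MSMO1, a sterol oxidase, and SCAP, the sterol sensor, at 1.29 ± 0.12 and 1.32 ± 0.12 and 1.24 ± 0.23 and 1.49 ± 0.14. APOE, the lipid carrier, was higher in theca (-1.26 ± 0.11 and -1.15 ± 0.08). Of 30 folding and heat shock genes 18 were called higher in granulosa and 2 higher in theca without sheep 209, and 13 and 2 over 5 pairs, and FKBP10, a collagen chaperone, was among the latter (-1.87 ± 0.12 and -1.76 ± 0.09).

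Interferon-induced genes were called on the theca side without sheep 209, and sheep 315 stood above the rest in level. Of 31 measured, 17 were called higher in theca and 0 higher in granulosa without sheep 209 (theca background 25.3%), and 5 and 0 over 5 pairs, where the theca count is no higher than the background of 17.3%. MX1, an antiviral GTPase singled out after its values were seen, stood at 1620.2, 287, 180.3, 149 and 29256 in granulosa and 883, 636, 399.8, 284 and 36177 in theca (-0.53 ± 0.30 and -0.88 ± 0.15). CXCL10, a chemokine that attracts T cells, stood at 57.5, 90.4, 85.2, 79.1 and 1059.8 in granulosa and 6.33, 447, 497, 723 and 4977 in theca (-1.45 ± 0.88 and -2.56 ± 0.17). Sheep 315 held the highest level of each of these genes in both layers, and its layers differed in the same direction as those of sheep 210, 230 and 276. In sheep 209 CXCL10 was higher in granulosa. MX1 and CXCL10 were called without sheep 209 only. Ribosomal protein genes, whose near-identical copies make their counts uncertain, had small differences. Of 71 measured, 25 were called higher in theca and 1 higher in granulosa without sheep 209 (theca background 25.3%, granulosa background 24%). Over 5 pairs the counts were 2 and 1, both below the backgrounds of 17.3% and 16.3%. RPS3A differed by -0.44 ± 0.11 and -0.53 ± 0.08. Of 27 genes tied to ovulation, 11 were called higher in theca and 10 higher in granulosa without sheep 209, and 7 in each direction over 5 pairs, against backgrounds of 25.3% and 24% and of 17.3% and 16.3%. OXT, the oxytocin gene that granulosa cells switch on around ovulation, stood at 8.05, 58.1, 24.5, 2.29 and 2011 in granulosa and 0, 16.01, 4.19, 0 and 238 in theca (2.41 ± 0.37 and 2.22 ± 0.36), with nearly all of it in sheep 315.

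The pair of sheep 209 shared some of these layer differences. Of the 7761 genes called without it, 5170 (66.6%) had the same direction in its own pair. For genes over 4-fold higher in theca the count was 1053 of 1418, and for genes over 4-fold higher in granulosa 137 of 264. By group, 16 of 16 stroma genes, 18 of 18 endothelial genes, 14 of 15 smooth muscle genes, 26 of 27 collagens and 49 of 53 cell division genes had the direction of the other sheep. Of granulosa markers 4 of 15 did, and 3 more had a difference of 0 in sheep 209 and so no direction. Of interferon genes 3 of 17 did and of ribosomal protein genes 3 of 26. The genes were picked by their calls in the other sheep, and the absence of follicle markers was what set sheep 209 apart, so these counts are a description. Across the 15731 genes, which are not independent, its layer differences correlated with the mean of the other sheep at r = 0.39, and those of each of the other 4 with the mean of the remaining ones at 0.81 to 0.85.

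Layer differences of prenatal T sheep were then set against those of the control sheep, in 1 fit of 9 pairs with a term for layer by treatment. Of 15731 genes, 0 (0%) were called for that term over 9 pairs and 0 (0%) without sheep 209, by limma and by edgeR. The edgeR fits used recovered reads, and those of the theca library of control sheep 244 were recovered only approximately. Unadjusted p was under 0.05 for 744 and 1321 genes by limma and for 776 and 1398 by edgeR, and the smallest adjusted p of limma was 0.689 and 0.137. Over 9 pairs both counts were below a share of 0.05 of the genes tested, and without sheep 209 both were above it. The source of that excess was not tested. The median SE of the term was 0.25 over 9 pairs and 0.21 without sheep 209, so small differences were not detectable with these animals. Larger terms were not called either, such as -1.54 ± 0.20 for CTTNBP2 without sheep 209. Of the 7761 genes called in prenatal T sheep without sheep 209, 7636 (98.4%) had the same direction in the control pairs. List medians in prenatal T sheep without sheep 209 and in control sheep were 2.29 and 2.14 for granulosa markers, -1.74 and -1.44 for theca endocrine markers, -3.68 and -2.97 for stroma, -2.85 and -2.91 for smooth muscle and -2.56 and -2.29 for endothelium. They were 1.12 and 0.85 for cell division, and -0.0036 and 0.042 over all genes. Over 5 pairs the prenatal T medians were 1.56, -1.43, -3.42, -2.95, -2.49 and 1.08 in the same order. The median term of the granulosa markers was -0.47 over 9 pairs and 0.11 without sheep 209, so its sign rests on that sheep, and that of the theca endocrine markers was 0.0097 and -0.28.

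For the leading genes the term can be read directly. The layer difference of AMH in control sheep was 2.68 ± 0.14, and the term, prenatal T minus control, was -0.70 ± 0.50 over 9 pairs and -0.21 ± 0.18 without sheep 209. CYP17A1 had a control difference of -2.12 ± 0.17 and a term of -0.43 ± 0.75 and -1.07 ± 0.45. For IHH the control difference was 3.61 ± 0.13 and the term -0.90 ± 0.43 and -0.50 ± 0.20. IGF1 had -3.35 ± 0.18 in control sheep and a term of -1.64 ± 0.41 and -1.77 ± 0.41. The values of COL1A1 were -3.88 ± 0.17, -1.01 ± 0.33 and -0.92 ± 0.32, and those of ACTA2 -4.62 ± 0.14, -0.84 ± 0.28 and -0.91 ± 0.28. The values of IGF1, COL1A1 and ACTA2 were farther from 0 in prenatal T sheep in both fits, yet none was called (adjusted p = 0.958, 0.958 and 0.958 over 9 pairs and 0.457, 0.535 and 0.535 without sheep 209).

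The genes nearest to a call were picked by their rank in p among all genes tested, so their terms are a description. SCARA3, a scavenger receptor, had layer differences of -0.09, 0.05, 0.01, -0.02 and 0.12 in the 5 prenatal T sheep and -0.40, -0.46, -0.54 and -0.41 in control sheep 224, 244, 246 and 268 (term 0.47 ± 0.08, adjusted p = 0.689). The groups did not overlap. C1QTNF3, a secreted relative of adiponectin, had -4.64, -3.40, -4.46, -3.97 and -4.37 against -2.42, -2.60, -2.29 and -3.00 (term -1.60 ± 0.25). MYLK had -4.50, -5.00, -4.69, -5.67 and -4.88 against -3.43, -3.93, -3.60 and -4.06 (term -1.19 ± 0.23). Both were on the theca side in all 9 sheep and farther from 0 in the prenatal T group. MMP13 had 2.63, 2.67, 4.31, 3.41 and 3.53 against 0.74, 1.43, 1.21 and 1.39 (term 2.12 ± 0.43), though its level was at most 10.0 in both layers of 3 of the 4 control sheep. OXT had 3.18, 1.80, 2.30, 1.72 and 3.07 against 0.50, 0.33, -0.44 and -0.99 (term 2.56 ± 0.53), with levels of 2.29 to 58.1 in granulosa outside sheep 315. The terms of BHLHE41, RTN4R, FGD5, ITGA8 and SERINC1 were 0.87 ± 0.18, 2.24 ± 0.51, -1.31 ± 0.24, -0.93 ± 0.17 and -0.62 ± 0.12, none called. Without sheep 209, CTTNBP2 and FRZB, a cortactin-binding protein and a secreted Wnt inhibitor, had the smallest p, with terms of -1.54 ± 0.20 and -1.64 ± 0.22 (adjusted p = 0.137 for both). CTTNBP2 had 1.11, -1.91, -2.08, -2.11 and -2.04 in prenatal T sheep and -0.60, -0.37, -0.07 and -0.97 in control sheep, so sheep 209 had the opposite sign to the other 4. KLHL3, MTCL1 and LDLRAD4 had terms of 1.34 ± 0.23, 1.31 ± 0.28 and -0.97 ± 0.17 in that fit.

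**Figure D5:**
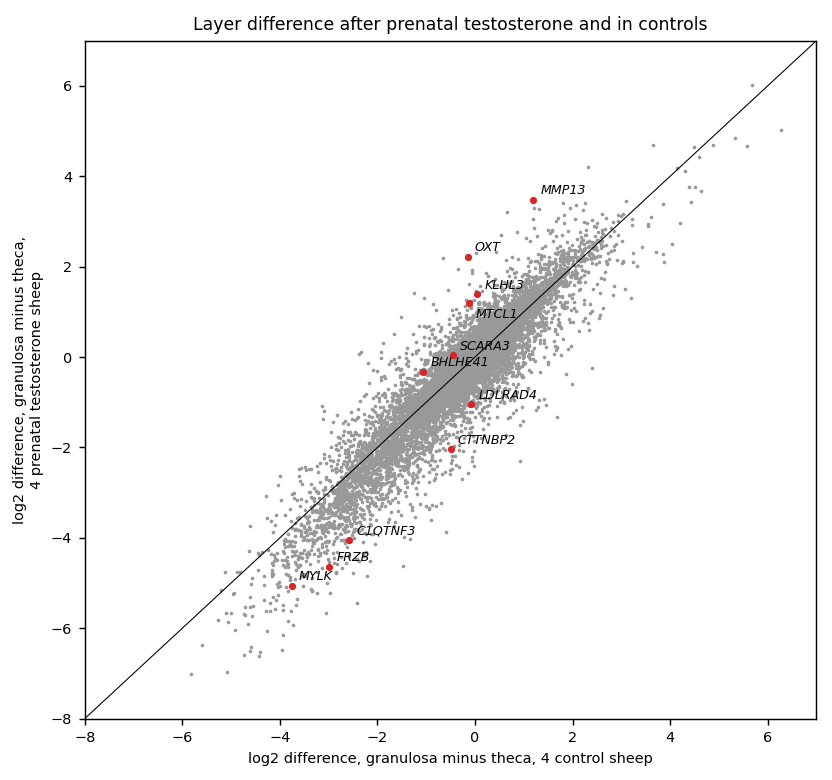
Layer difference of each of the 15731 genes in 4 prenatal T sheep (vertical axis, without sheep 209) against that in 4 control sheep (horizontal axis), both on the log2 scale, with the line of equal difference. Points lie along the line, 7636 of the 7761 genes called in prenatal T sheep have the same direction in control sheep, and the genes marked in red, which are among those nearest to a call for the difference between the groups, passed no threshold.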

How the data were processed

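Ribosomal RNA was removed from total RNA and stranded libraries were made, per the labels' protocols. The values the authors deposited are a signal, gene counts scaled by a size factor for each library. Per the submitters' processing notes, STAR 2.6.0c, Subread 1.6.1 with featureCounts, and DESeq2 were used. The genome build, and whether strand was used in counting, are not given in the sources used here, so reads of overlapping genes cannot be told apart. Each value of the 10 libraries (100%) divided by the worth of 1 read gave a whole number within 1e-06 of itself, which recovers the reads, and 0 columns of values lacked a sample. Granulosa cells of control sheep 139 were not analysed here. Of 10441 LOC identifiers 6969 matched a RefSeq gene table of assembly ARS-UI_Ramb_v3.0, used for names only, and 457 were given a symbol.

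Of 28524 genes, the 15731 with a level of at least 10 in at least 4 of the 10 libraries were tested. A gene could pass this filter through the libraries of a single layer. limma 3.58.1 (R 4.3.3) was run on log2 of the level plus 1, its variance following a trend in the mean, with the sheep as a block, two-sided, for granulosa against theca over 5 pairs and without sheep 209, and for layer by treatment over 9 pairs and 8 pairs. p was adjusted by Benjamini-Hochberg over all genes tested, and 0.05 was the threshold. Recovered reads were tested by the quasi-likelihood test of edgeR 4.0.16 and by DESeq2 1.42.0 as alternatives, along with the fit without a block, each sheep left out, a pseudocount of 5, no filter, a minimum of 50 and TMM scaling. The scripts were tested on simulated data. The layers pair by animal. Deviations of the layers of a sheep from their group means correlated at r = 0.55 to 0.80 across genes, best with the own other layer in 5 of 5 sheep. The highest was that of sheep 209, and sheep 230 had 0.59 against 0.55 with another sheep. Without sheep 209 the values were 0.37 to 0.62, each above that with any other sheep, which was at most 0.14. No library repeated another of its group within sampling noise (smallest chi-square per degree of freedom 30.7).

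Named genes are those past the threshold with a symbol, a mean level of at least 100 and the same sign in every pair, the 10 largest differences in each direction in each fit. To these are added the members with the smallest p, at most 4, of each of 38 gene lists, the cell type markers, and for layer by treatment the 5 genes of smallest p in each direction, with a mean of at least 10. Genes may meet this rule and still go unreported here. The samples, the lists and the rule were chosen with earlier results of these data known, and lists are described by counts and medians with no test of their own. Counting limits cover counting error only.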

Additional observations from a re-analysis of the deposited data

Results flagged for a closer look

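Among the 178 genes named for their layer difference, 35 had 1 of the 5 sheep far from the other 4, by the gap to the nearest sheep over the whole range. Chance flags about 1 in 20 groups of values. That share is no yardstick here, since many of these genes were named from the fit without sheep 209 or are the follicle markers whose absence set that sheep apart. The sheep was 209 in 31 of the 35, 276 in 2 and 230 and 315 in 1 each.

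In sheep 209 granulosa markers had layer differences of 0 (AMH), 0.15 (HSD17B1), -0.019 (NR5A2), -0.61 (FST), -1.02 (KITLG), -2.45 (FOXL2), -3.64 (INHBB), -4.14 (INHBA) and -4.18 (CDH2), each below the range of the other sheep, which for AMH was 2.31 to 2.74 and for CDH2 2.06 to 2.72. Other genes high in granulosa of the other sheep stood at 0 (SCN10A), 0.019 (RUNX1), -0.14 (PFKFB3), -0.19 (SMAD2), -0.35 (KLHL31), -0.40 (ADAMTS7), -0.45 (ACSBG1), -0.55 (VEGFA), -1.87 (CCND2), -2.04 (HEY2), -2.56 (CHRDL1) and -3.57 (VCAN).

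Genes high in theca of the other sheep were closer to equal in sheep 209 for LHX9 (0), BMPR1A (-0.0033), HSPB8 (-0.66), AGTR1 (-1.24) and TCF23 (-3.16), and CXCL10 was at 2.998 against -3.18 to -2.23. They were farther on the theca side for TET1 (-2.08), FZD1 (-3.77), CSPG4 (-4.07) and SFRP2 (-4.82). Sheep 276 was farthest on the theca side for ACTA2, at -6.39 against -5.33 to -5.12, and for IGF1, at -6.41 against -4.92 to -4.32. Sheep 230 was farthest on the theca side for FCGR3A, at -4.73 against -1.46 to -0.13. Sheep 315 was lowest for UHRF1, at 0.71 against 1.28 to 1.41.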

How the results depend on the processing

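The count of 5274 genes called over 5 pairs ran from 2936 to 7761 when 1 sheep was left out, and it was 1446 with no replicate block (367 higher in granulosa, 25.4% of the calls against 48.5% with the pairing) and 5190 with no replicate block and no sheep 209. It was 5382 with a pseudocount of 5, 4894 with no filter on low levels, 4760 with a minimum of 50, 5354 with TMM scaling, 5001 by edgeR and 6369 by DESeq2. Without sheep 209 edgeR called 7569 and DESeq2 7556. The layer by treatment count was 0 in each of the alternatives run, among them no replicate block, which had 92 genes at an unadjusted p under 0.05, and the smallest adjusted p over them was 0.1104, without sheep 210.

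Of the 178 named genes, 143 were called over 5 pairs and 168 without sheep 209, 173 kept their direction in each alternative run and 73 were called in each. Leaving out sheep 210, 230, 276 or 315 ended 26, 27, 25 and 27 calls, and the fit with no replicate block 65. FOXL2, at -0.06 over 5 pairs, ran from -0.28 to 0.54 when 1 sheep was left out, the latter without sheep 209, and was 0.54 without that sheep and the block, 0.10 and 0.54 by edgeR with and without it and 0.041 and 0.53 by DESeq2. GATM ran from -0.041 (without sheep 210) to 0.22, CD68 from -0.096 (without sheep 315, and -0.034 without sheep 210) to 0.34, DDX4 from -0.57 to 0.37 and KRT7 from -1.33 to 0.16, the last values both without sheep 276. None of GATM, CD68, DDX4 and KRT7 was called in these fits. The cause was not tested. Levels near 3 reads per library limit genes such as BMP15 and KRT7.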

Other observations

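Genes tied to ovulation gave opposite layers within 1 list. PTGS2, the prostaglandin synthase that rises at ovulation, stood at 3048, 0, 0, 1.15 and 0 in granulosa and 7279, 17.1, 22.0, 7.17 and 33.0 in theca (-3.39 ± 0.64 and -3.93 ± 0.70), and it was at or near the level of 1 read in granulosa of every sheep but 209. EREG, an epidermal growth factor ligand, stood at 2184, 16.1, 11.8, 4.58 and 283 in granulosa and 1139, 2.13, 0, 0 and 22.8 in theca (2.62 ± 0.46 and 3.05 ± 0.49), and HAS2, which makes hyaluronan for the cumulus, at 287, 123, 30.4, 6.88 and 322 in granulosa and 1315, 19.2, 13.6, 0 and 18.2 in theca (1.71 ± 0.87 and 2.69 ± 0.51). EREG was called higher in granulosa in both fits and HAS2 without sheep 209 only. These 3 genes were singled out after their values were seen, and sheep 209 and 315 held the highest granulosa levels of EREG and HAS2.

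Among peptide hormones and their receptors, 17 of 27 measured genes were called higher in theca and 7 higher in granulosa without sheep 209, with a median of -2.39. Over 5 pairs the counts were 14 and 2 (theca backgrounds 25.3% and 17.3%, granulosa backgrounds 24% and 16.3%). Chromatin modifiers gave 21 of 60 called higher in granulosa and 11 higher in theca without sheep 209, with a median of 0.15, and 16 and 9 over 5 pairs. The granulosa counts are above the granulosa backgrounds of 24% and 16.3%, and the theca counts are below the theca backgrounds. Immediate early genes gave 6 and 3 of 31 without sheep 209 and 1 and 2 over 5 pairs, below both backgrounds in each fit.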
